A study of Mus musculus with 12 samples.

Results

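The 8 genes described here encode transcriptional regulators of the kidney proximal tubule: the nuclear receptors Hnf4a, Hnf4g, Ppara, Rxra, Esrra and Esrrg, the leucine zipper factor Maf and the coactivator Ppargc1a (PGC-1alpha). They were taken by name, 8 of the 18193 genes that the array annotation gives at least 1 probe set of their own, and each is represented by its probe set with the highest mean over the 12 arrays. Of the 8, 7 passed the filter on low values and Hnf4g did not. RNA came from Percoll-isolated proximal tubules of mice aged 20 weeks on normal diet and water, hybridized to 1 array per sample. There were 4 groups of 3 arrays: dB/dB mice with a catalase transgene (dB/dB catalase-Tg), dB/dB mice, catalase-transgenic mice without dB/dB (catalase-Tg) and wild type. In dB/dB mice the leptin receptor is defective, and the animals grow obese and diabetic. Catalase is an enzyme of peroxisomes that turns hydrogen peroxide into water and oxygen. The labels give no strain, sex or transgene promoter. They also leave out whether each sample was a separate animal, so p-values measure only sample-to-sample spread, which could be technical. As background from outside the labels, this mouse line carries rat catalase driven by the promoter of Kap, an androgen-responsive gene of the proximal tubule.

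HNF4A binds DNA as a homodimer and maintains the differentiated state of proximal tubule cells, including their transporters. HNF4G is its close relative. PPAR-alpha, with RXR-alpha as its dimer partner, switches on fatty acid oxidation, the main fuel supply of this segment. PGC-1alpha has no DNA-binding domain of its own and coactivates PPAR-alpha and the estrogen-related receptors ERR-alpha (Esrra) and ERR-gamma (Esrrg), which drive mitochondrial genes. ERR-gamma and PGC-1alpha are also active in the loop of Henle and distal tubule. MAF is present in proximal tubule cells and also in macrophages.

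The sequences just upstream of the start sites are shown for 3 members whose brightest probe sets stand for the 2 directions of array-to-array variation described further on, Hnf4a and Rxra for the first and Ppargc1a for the second. RefSeq windows (GRCm38.p6) were found for 6 of the 8 members, and each window shown is the 250 bases before a start, 5′ to 3′ on the strand of the gene. Capitals mark the nuclear receptor half-site AGGTCA, the Maf half-site TGCTGA or the cAMP response element half-site TGACGT on either strand. No match overlapped another. The Hnf4a window lies at chr2:163546905-163547154 (plus strand, the downstream of 2 starts), the Rxra window at chr2:27709042-27709291 (plus strand, the downstream of 2 starts) and the Ppargc1a window at chr5:51567726-51567975 (minus strand).
Hnf4a: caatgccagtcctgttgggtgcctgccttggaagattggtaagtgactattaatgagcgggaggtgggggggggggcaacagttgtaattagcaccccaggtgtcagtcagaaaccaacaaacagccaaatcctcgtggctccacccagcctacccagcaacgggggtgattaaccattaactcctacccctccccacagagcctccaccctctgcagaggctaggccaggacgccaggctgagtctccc
Rxra: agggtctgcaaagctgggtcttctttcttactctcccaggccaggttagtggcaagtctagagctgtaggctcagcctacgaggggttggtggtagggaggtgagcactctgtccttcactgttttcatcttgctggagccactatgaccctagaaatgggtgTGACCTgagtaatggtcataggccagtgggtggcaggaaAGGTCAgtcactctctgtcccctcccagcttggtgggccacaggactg
Ppargc1a: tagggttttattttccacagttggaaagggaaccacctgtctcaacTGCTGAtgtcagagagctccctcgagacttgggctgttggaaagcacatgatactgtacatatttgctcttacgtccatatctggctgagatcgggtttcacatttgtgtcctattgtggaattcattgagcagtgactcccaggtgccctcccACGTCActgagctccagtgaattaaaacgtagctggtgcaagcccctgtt
The Rxra window shown holds 2 nuclear receptor half-sites, 1 on each strand, 82 to 87 and 43 to 48 bases before the start. The window of the other Rxra start, at chr2:27676951-27677200, holds none of the 3 motifs. The Ppargc1a window holds a Maf half-site 199 to 204 bases before the start and a cAMP response element half-site 45 to 50 bases before it. The Hnf4a window holds none of the 3 motifs. Among 32851 windows of the same length, 14.0% hold the nuclear receptor half-site, 16.1% the Maf half-site and 6.47% the cAMP response element half-site, so such matches are common.

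Between 36.9% and 38.5% of probe sets lay above 4 on the log2 scale of the deposited values on each array. Over all probe sets, the correlation of arrays was r = 0.941 to 0.996 within groups and 0.938 to 0.991 between groups. Mouse Cat probe sets were bright in every group (10.24 to 12.90) and do not check a rat transgene, and the 4 Lepr probe sets lay at 2.30 to 3.03, near the floor of 2.302. Xist, a transcript of female cells, read 11.91 on wild type 2 and 6.72 on wild type 3 on its brightest probe set, against 2.31 to 2.67 on the other 10 arrays. Its remaining probe sets read 8.62 and 9.88 on wild type 2, but only 2.74 and 3.67 on wild type 3. Eif2s3y, a Y-linked gene, read 2.30 on wild type 2 and 7.88 to 8.93 on the other 11 arrays, wild type 3 (7.89) included. Kap itself read 12.67, 14.24 and 12.73 in dB/dB catalase-Tg, 12.92, 12.09 and 12.96 in dB/dB, 7.68, 14.04 and 14.05 in catalase-Tg, and 7.72, 10.01 and 14.28 in wild type, lowest on catalase-Tg 1 and wild type 1. Proximal tubule genes were bright, with a summed linear signal over 35 of 38 listed genes of 112205 to 207391 in dB/dB catalase-Tg, 101256 to 113491 in dB/dB, 163998 to 200536 in catalase-Tg and 48894 to 211599 in wild type. Wild type 1 stood apart, with the lowest proximal tubule score of the 12 arrays (-1.83, the mean difference of the 35 genes from their own means). Limma's array weights, which fall with the distance of an array from its group, were lowest for dB/dB catalase-Tg 1 (0.172), wild type 1 (0.227) and catalase-Tg 1 (0.287).

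Hnf4a, Ppara, Rxra and Maf had higher means in both transgenic groups than in the matching group without the transgene, and Ppargc1a and Esrrg lower ones. In mice without dB/dB most of this rested on wild type 1, except for Esrrg, which differed by -0.59 without that array and -0.94 with it. Without that array, catalase-Tg against wild type gave 0.21 for Hnf4a, 0.18 for Ppara, 0.23 for Rxra, 0.22 for Maf and 0.07 for Ppargc1a, where all 12 arrays gave 1.00, 0.90, 0.65, 0.78 and -0.33. That fit sets catalase-Tg arrays, with Xist at 2.31 to 2.67, against wild type 2 and 3, with Xist at 11.91 and 6.72. On wild type 1 Xist read 2.32. The part of sex in the comparisons with wild type was not tested. Against the spread between arrays of a group, limma called no member in any comparison. Of the 7 members tested, limma called 0 in dB/dB catalase-Tg against dB/dB (0.00551% of all 18144 probe sets tested were called there) and 0 in dB/dB catalase-Tg against catalase-Tg (0.0276% of all). It called 0 in dB/dB against wild type (0.0% of all), 0 in catalase-Tg against wild type (0.022% of all) and 0 in the interaction of both factors (0.00551% of all). At an unadjusted p under 0.05 there was 1 member in dB/dB catalase-Tg against dB/dB and 1 in dB/dB against wild type, Esrra each time, 1 in catalase-Tg against wild type, Esrrg, and 0 in the other 2. Over all probe sets the share at that unadjusted p was 7.5% in dB/dB catalase-Tg against dB/dB, 4.16% in dB/dB against wild type and 9.15% in catalase-Tg against wild type. It was 6.86% in dB/dB catalase-Tg against catalase-Tg and 1.64% in the interaction.

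**Figure D1:**
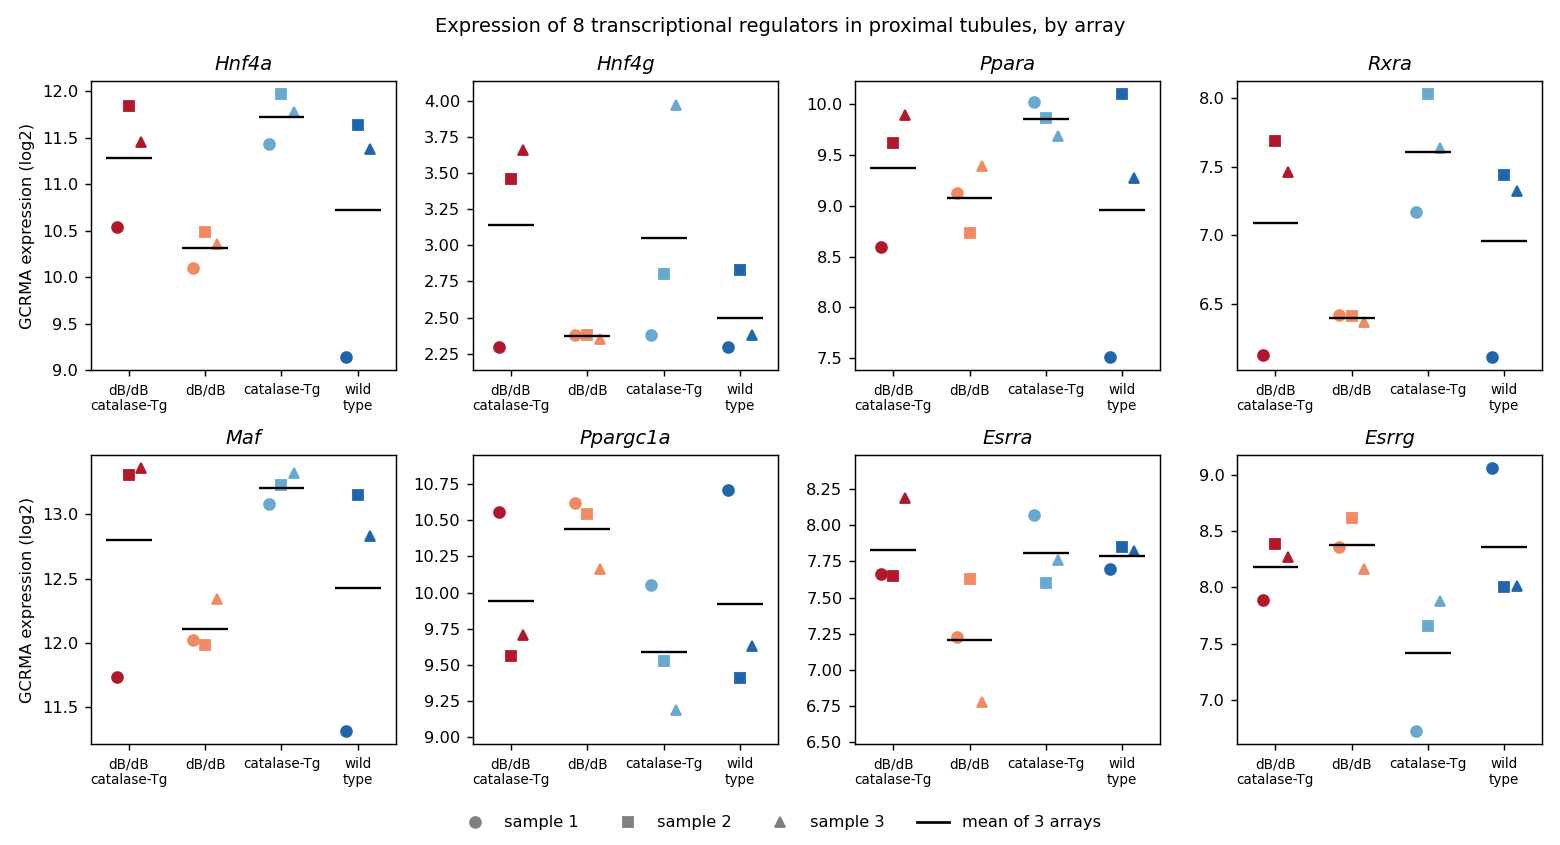
Expression (log2, vertical axis) of each regulator on its brightest probe set in the 4 groups (horizontal axis), 1 point per array with a shape for the sample number and a bar for the mean of 3 arrays. For Hnf4a, Rxra and Maf the 3 dB/dB arrays, wild type 1 and dB/dB catalase-Tg 1 are the 5 lowest of 12, and for Ppargc1a the same 5 are the highest.

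On the brightest Hnf4a probe set, samples 1 to 3 read 10.54, 11.84 and 11.46 in dB/dB catalase-Tg, 10.10, 10.49 and 10.36 in dB/dB, 11.43, 11.97 and 11.78 in catalase-Tg, and 9.14, 11.64 and 11.38 in wild type (log2). The 3 dB/dB catalase-Tg arrays all lay above the 3 dB/dB arrays, as they did for 4.87% of all probe sets tested, while catalase-Tg and wild type overlapped. The transgene difference of Hnf4a was 0.97 (SE 0.58, adjusted p = 0.636) in dB/dB mice and 1.00 (SE 0.58, adjusted p = 0.608) in mice without dB/dB, where a log2 difference of 1 is a 2-fold change. Leaving out 1 array gave 0.69 to 1.33 with dB/dB and 0.21 to 1.46 without it, lowest without wild type 1. In 2 groups Hnf4a varied more between arrays than the median gene. Its SD was 0.67 in dB/dB catalase-Tg and 1.38 in wild type (n = 3 each), where the median SD of the 9744 genes tested was 0.38 and 0.34. In dB/dB and catalase-Tg its SD was 0.20 and 0.27, close to the medians of 0.23 and 0.28. In tubule preparations, fewer proximal tubule cells and less RNA per cell cannot be told apart.

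The other 3 Hnf4a probe sets, with means of 9.13, 8.10 and 5.26, ran in the same direction as the brightest. Their differences were 1.16 to 1.32 in dB/dB catalase-Tg against dB/dB and 1.07 to 1.43 in catalase-Tg against wild type. In the first comparison the groups did not overlap on the probe set of mean 5.26. They did overlap on those of mean 9.13 and 8.10, where dB/dB catalase-Tg 1 read 7.84 and 6.88. In dB/dB against wild type all 4 were below 0, at -0.74 to -0.40, and none passed (adjusted p = 0.777 to 0.813). Wild type 1 was the lowest array on each of the 4. On the probe set of mean 8.10 it read 5.31, with wild type 2 and 3 at 9.31 and 8.73.

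Hnf4g, the second HNF4 gene, was not above 4 on any array. Its brightest probe set read 2.30, 3.46 and 3.66 in dB/dB catalase-Tg, 2.38, 2.38 and 2.35 in dB/dB, 2.38, 2.80 and 3.97 in catalase-Tg, and 2.30, 2.83 and 2.38 in wild type. The highest values were those of dB/dB catalase-Tg 2 and 3 and of catalase-Tg 3. With no filter on low values, its largest difference was 0.77 (SE 0.45, adjusted p = 0.759), in dB/dB catalase-Tg against dB/dB. The other 2 Hnf4g probe sets stayed below 3.2 on all arrays.

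Ppara, the fatty acid receptor, read 8.60, 9.62 and 9.90 in dB/dB catalase-Tg, 9.13, 8.73 and 9.39 in dB/dB, 10.02, 9.87 and 9.69 in catalase-Tg, and 7.51, 10.10 and 9.27 in wild type. The groups overlapped in each of the 4 pairwise comparisons, with 1 low array in wild type and 1 in dB/dB catalase-Tg. The largest difference was 0.90 (SE 0.56, adjusted p = 0.638), in catalase-Tg against wild type, and it was 0.18 without wild type 1. dB/dB differed from wild type by 0.12 (SE 0.56, adjusted p = 0.944), while the other 2 Ppara probe sets gave -0.44 and -0.40 there. The 3 probe sets gave 0.29, 0.62 and 0.80 in dB/dB catalase-Tg against dB/dB, where leaving out 1 array gave 0.03 to 0.68 on the brightest.

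Rxra, the dimer partner of PPAR-alpha and of many other nuclear receptors, read 6.13, 7.69 and 7.46 in dB/dB catalase-Tg, 6.42, 6.41 and 6.37 in dB/dB, 7.17, 8.03 and 7.64 in catalase-Tg, and 6.11, 7.44 and 7.32 in wild type. The dB/dB arrays were nearly the same (SD 0.03), and wild type 1 and dB/dB catalase-Tg 1 lay below all of them. The transgene difference was 0.69 (SE 0.45, adjusted p = 0.642) with dB/dB and 0.65 (SE 0.45, adjusted p = 0.666) without it. With single arrays left out it was 0.39 (without dB/dB catalase-Tg 2) to 1.17 (without dB/dB catalase-Tg 1) in the first and 0.23 (without wild type 1) to 0.90 in the second. The dB/dB difference was -0.52 (SE 0.45) with the transgene and -0.56 (SE 0.45) without it, or -0.98 when wild type 1 was left out. The other 2 Rxra probe sets were not above 4 on any array, so this gene rests on 1 probe set.

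Maf, a factor of differentiated tubule cells, read 11.73, 13.31 and 13.36 in dB/dB catalase-Tg, 12.02, 11.98 and 12.34 in dB/dB, 13.08, 13.23 and 13.32 in catalase-Tg, and 11.31, 13.15 and 12.83 in wild type. Catalase-Tg arrays lay close together (SD 0.12), and again wild type 1 and dB/dB catalase-Tg 1 were the 2 lowest of the 12. The transgene difference was 0.69 (SE 0.51, adjusted p = 0.655) with dB/dB and 0.78 (SE 0.51, adjusted p = 0.651) without it. These differences ran from 0.41 (without dB/dB catalase-Tg 3) to 1.22 (without dB/dB catalase-Tg 1) in the first and 0.22 (without wild type 1) to 1.14 in the second when single arrays were left out.

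The 5 Maf probe sets tested ran the same way in sign in all 4 pairwise comparisons but differed in which arrays were high. On the probe set of mean 9.59, catalase-Tg 1 was the highest array at 10.74 and dB/dB catalase-Tg 1 was second at 10.00. There the catalase-Tg arrays lay above the wild-type arrays without overlap, by 0.92 (SE 0.31, adjusted p = 0.52). They did so too on the probe set of mean 4.65, near the filter, by 1.24 (SE 0.52, adjusted p = 0.534). On that probe set dB/dB catalase-Tg lay below catalase-Tg without overlap, by -1.41 (SE 0.52, adjusted p = 0.688). Non-overlapping groups were found for 5.74% of all probe sets in the first of these directions and 9.35% in the second.

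On all 5 probe sets Ppargc1a had lower means with the transgene and higher means with dB/dB. In dB/dB against wild type, however, the probe sets of mean 7.92 and 7.82 differed by only 0.06 (SE 0.39) and 0.02 (SE 0.34). The brightest read 10.56, 9.56 and 9.71 in dB/dB catalase-Tg, 10.62, 10.54 and 10.16 in dB/dB, 10.05, 9.53 and 9.19 in catalase-Tg, and 10.71, 9.41 and 9.63 in wild type. Wild type 1 and dB/dB catalase-Tg 1 were here among the highest arrays, beside the 3 dB/dB arrays. The transgene difference of Ppargc1a was -0.50 (SE 0.38, adjusted p = 0.662) with dB/dB and -0.33 (SE 0.38, adjusted p = 0.8) without it, and dB/dB differed from wild type by 0.52 (SE 0.38, adjusted p = 0.767). Without dB/dB catalase-Tg 1 the first difference was -0.81, and without wild type 1 the other two were 0.07 and 0.92.

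In catalase-Tg against wild type the 5 Ppargc1a probe sets ran from -0.88 to -0.33, and on the probe set of mean 7.92 the groups did not overlap (-0.86, SE 0.39, adjusted p = 0.547). They ran from -0.68 to -0.21 in dB/dB catalase-Tg against dB/dB, and on the probe set of mean 8.0 the groups did not overlap (-0.68, SE 0.30, adjusted p = 0.636). Non-overlap downward was found for 7.8% of all probe sets in the first comparison and 11.1% in the second. The probe sets disagreed on sample 1 of both transgenic groups. The brightest put catalase-Tg 1 highest in its group at 10.05, while the one of mean 7.92 put it lowest of the 12 arrays at 6.71 and dB/dB catalase-Tg 1 next at 6.89. Only on the brightest did dB/dB catalase-Tg 1 lie above the mean of the 12 arrays, by 0.58, and on the other 4 it lay at -1.03 to -0.20 from it.

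Esrra, the estrogen-related receptor that drives oxidative phosphorylation genes, read 7.66, 7.65 and 8.19 in dB/dB catalase-Tg, 7.23, 7.63 and 6.78 in dB/dB, 8.07, 7.60 and 7.76 in catalase-Tg, and 7.70, 7.85 and 7.82 in wild type. The dB/dB arrays lay below all wild-type arrays and below all dB/dB catalase-Tg arrays. dB/dB differed from wild type by -0.58 (SE 0.24, adjusted p = 0.767), and non-overlap in that direction was found for 8.91% of all probe sets. dB/dB catalase-Tg differed from dB/dB by 0.62 (SE 0.24, adjusted p = 0.636), and 4.87% of all probe sets lay higher there without overlap. Both comparisons share the dB/dB arrays, and without dB/dB 3 the differences were -0.36 and 0.40. The wild-type arrays differed little (SD 0.08), wild type 1 included, unlike for the other members. The second Esrra probe set, of mean 4.97, gave -0.14 (SE 0.30) and 0.04 (SE 0.30) in these comparisons.

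Esrrg, the receptor ERR-gamma, read 7.89, 8.39 and 8.27 in dB/dB catalase-Tg, 8.36, 8.62 and 8.16 in dB/dB, 6.72, 7.66 and 7.88 in catalase-Tg, and 9.06, 8.0 and 8.01 in wild type. The catalase-Tg arrays were the 3 lowest of the 12, with dB/dB catalase-Tg 1 next. Catalase-Tg differed from wild type by -0.94 (SE 0.36, adjusted p = 0.532), without overlap, as did 7.8% of all probe sets in that direction, and by -0.59 without wild type 1 or without catalase-Tg 1. dB/dB catalase-Tg differed from catalase-Tg by 0.77 (SE 0.36, adjusted p = 0.726), again without overlap, as did 6.67% of all probe sets, and by 0.41 when catalase-Tg 1 was left out. Both comparisons share the catalase-Tg arrays.

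The second Esrrg probe set, of mean 7.93, did not run with the first. It read 7.90, 7.21 and 7.57 in dB/dB catalase-Tg, 8.71, 7.99 and 8.22 in dB/dB, 9.15, 7.69 and 7.32 in catalase-Tg, and 7.81, 7.95 and 7.59 in wild type. Catalase-Tg 1, the lowest array on the first probe set at 6.72, was the highest on this one at 9.15. Here catalase-Tg against wild type gave 0.27 (SE 0.42) and dB/dB catalase-Tg against catalase-Tg -0.50 (SE 0.42), both of the other sign than on the first probe set. Here the dB/dB arrays lay above the wild-type arrays without overlap, by 0.53 (SE 0.42, adjusted p = 0.767), as did 2.52% of all probe sets, where the first probe set differed by 0.02 (SE 0.36). The direction of Esrrg therefore depends on the probe set in both comparisons with catalase-Tg.

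**Figure D2:**
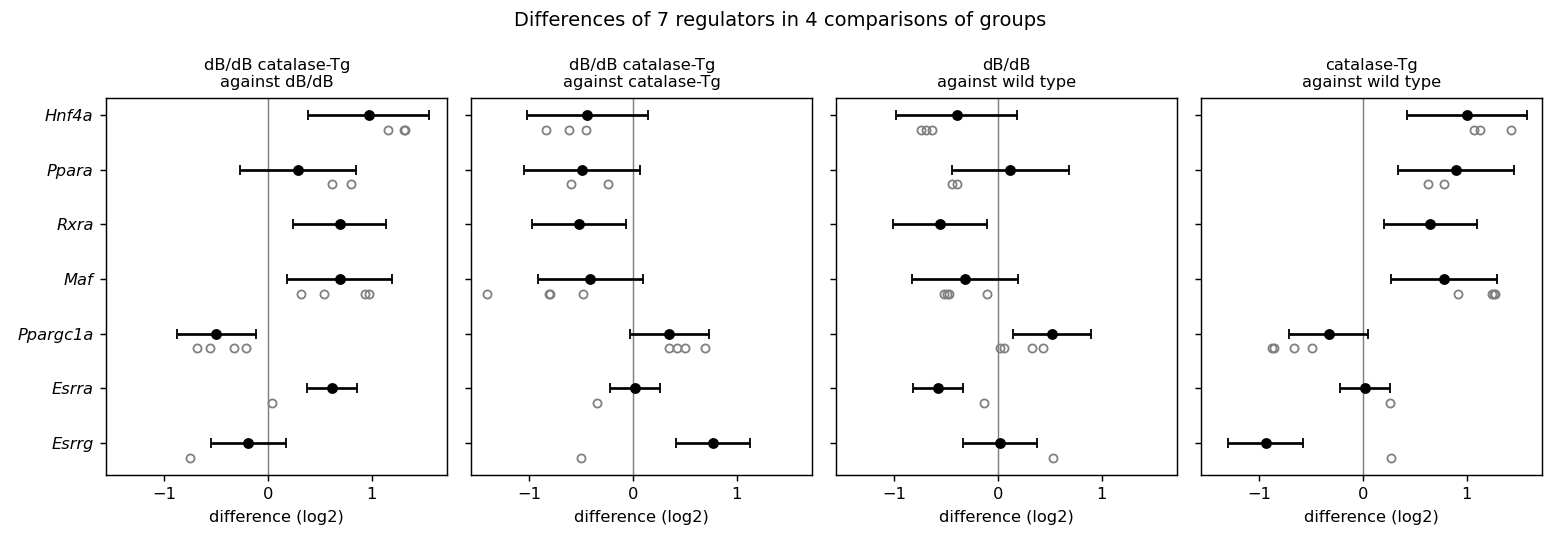
Difference (log2, horizontal axis) of each regulator in 4 pairwise comparisons, with the brightest probe set as a filled point with its standard error and the other tested probe sets as open circles below it. The Hnf4a and Maf probe sets lie on 1 side of 0 in each comparison, the 2 Esrrg probe sets on opposite sides in dB/dB catalase-Tg against catalase-Tg and in catalase-Tg against wild type.

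Set side by side on the arrays, the brightest probe sets of Hnf4a, Rxra and Maf had the same 5 lowest arrays, namely dB/dB catalase-Tg 1, dB/dB 1, 2 and 3 and wild type 1, and these 5 were the highest on the brightest Ppargc1a probe set. Ppara had 4 of the 5 among its lowest, with wild type 3 in place of dB/dB 3, and Esrra and Esrrg did not share the 5 arrays. For Hnf4a the fifth and sixth arrays from below were 10.54 and 11.38, for Rxra 6.42 and 7.17, and for Maf 12.34 and 12.83. For Ppargc1a the gap was narrower, from 10.05 to 10.16 between the seventh and eighth. After each gene was centred on its mean, the mean absolute difference over the 12 arrays was 0.18 between Rxra and Maf, 0.22 between Hnf4a and Rxra, 0.25 between Hnf4a and Maf, and 0.34 between Hnf4a and Ppara. It was 1.19 between Hnf4a and Ppargc1a and 0.46 between Ppargc1a and Esrrg. Esrra was 0.48 to 0.67 from each of the others.

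Marker genes of other kidney cells differed between the same arrays. The score of 13 loop of Henle and distal tubule markers was 0.99, 0.36 and 0.27 in dB/dB catalase-Tg, 1.35, 0.96 and 1.09 in dB/dB, -2.24, -1.51 and -1.57 in catalase-Tg, and 1.63, -1.78 and 0.47 in wild type. It was highest on the same 5 arrays. The catalase-Tg group had the lowest mean both of this score and of the brightest Esrrg probe set. On the second Esrrg probe set it did not, with means of 8.06 in catalase-Tg, 8.31 in dB/dB, 7.56 in dB/dB catalase-Tg and 7.78 in wild type. The score of 15 endothelial markers was 1.45, -0.83 and -1.16 in dB/dB catalase-Tg, 1.34, 0.75 and 1.73 in dB/dB, -0.12, -1.67 and -1.56 in catalase-Tg, and 1.48, -1.38 and -0.02 in wild type. It too was highest on these 5, as was the brightest Ppargc1a probe set but not the other 4. The score of 7 fibroblast and mural markers was also highest on these 5, at 0.89 to 2.12 against -2.07 to 0.13 on the other 7 arrays. The score of 9 podocyte markers was 0.48 to 2.76 on the 5, but was also high on wild type 3, at 1.90. The proximal tubule score was -0.43, 0.61 and 0.64 in dB/dB catalase-Tg, -0.46, -0.64 and -0.28 in dB/dB, -0.13, 0.68 and 0.68 in catalase-Tg, and -1.83, 0.84 and 0.31 in wild type, lowest on the 5 arrays on which Hnf4a, Rxra and Maf were lowest. The part of these cells in the members' differences was not tested.

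The marker lists differ in how much signal they hold. Summed on the linear scale, 13 of 14 loop and distal tubule markers gave 64482 to 98184 in dB/dB catalase-Tg, 96420 to 120897 in dB/dB, 13931 to 21876 in catalase-Tg and 21492 to 133164 in wild type. The 16 endothelial markers gave 595 to 4151 in dB/dB catalase-Tg, 2973 to 5379 in dB/dB, 395 to 1461 in catalase-Tg and 558 to 4986 in wild type. None of the markers in these 2 lists stayed at or below 4 on all arrays. Of 13 leukocyte markers, 6 did, among them the macrophage markers Cd68, Adgre1, C1qa and C1qc. Another 5 passed the filter, among them Csf1r (5.61 to 7.34), Tyrobp (2.42 to 5.35), Ptprc (3.04 to 5.82) and Cd74 (5.06 to 12.39). The leukocyte score was highest on dB/dB catalase-Tg 1 (1.56) and dB/dB 2 (1.36), where the brightest Maf probe set was low. On the Maf probe set of mean 9.59 the first of these arrays was second highest.

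**Figure D3:**
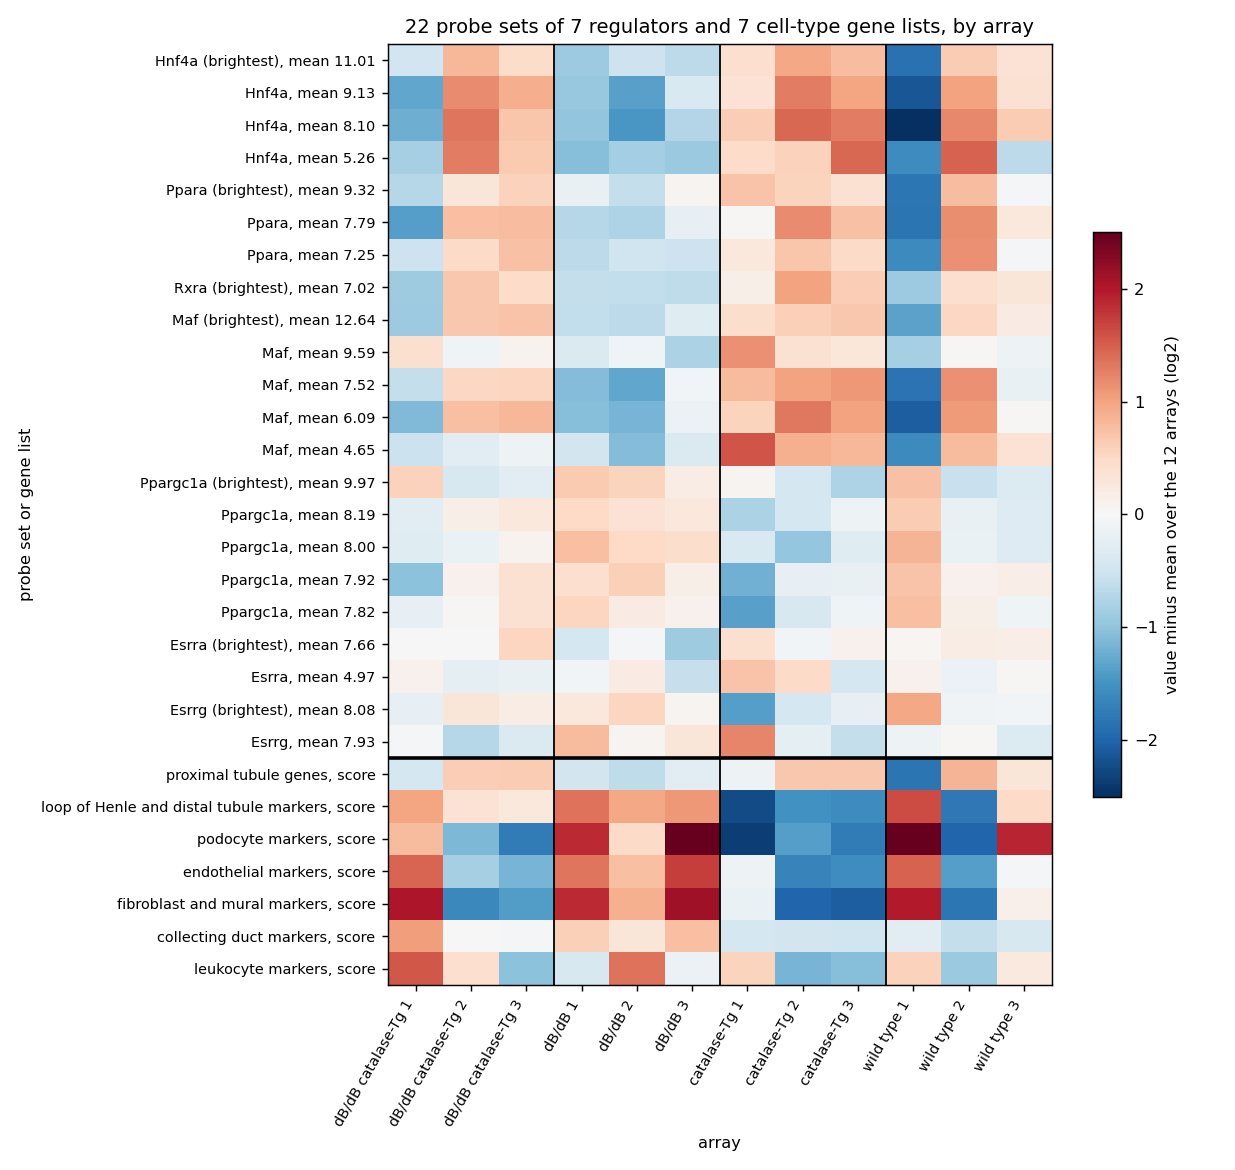
Value minus the mean over 12 arrays (log2, colour) for the 22 tested probe sets of 7 regulators and for the scores of 7 cell-type gene lists (rows), on each array (columns, 4 groups separated by lines). The Hnf4a, Ppara, Rxra and most Maf rows are mostly of the sign of the proximal tubule score, which is -1.83 on wild type 1. An exception is catalase-Tg 1, where that score is -0.13 and all rows of these genes are positive. The brightest Ppargc1a row is mostly of the sign of the endothelial score, at 1.48 on wild type 1.

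**Figure D4:**
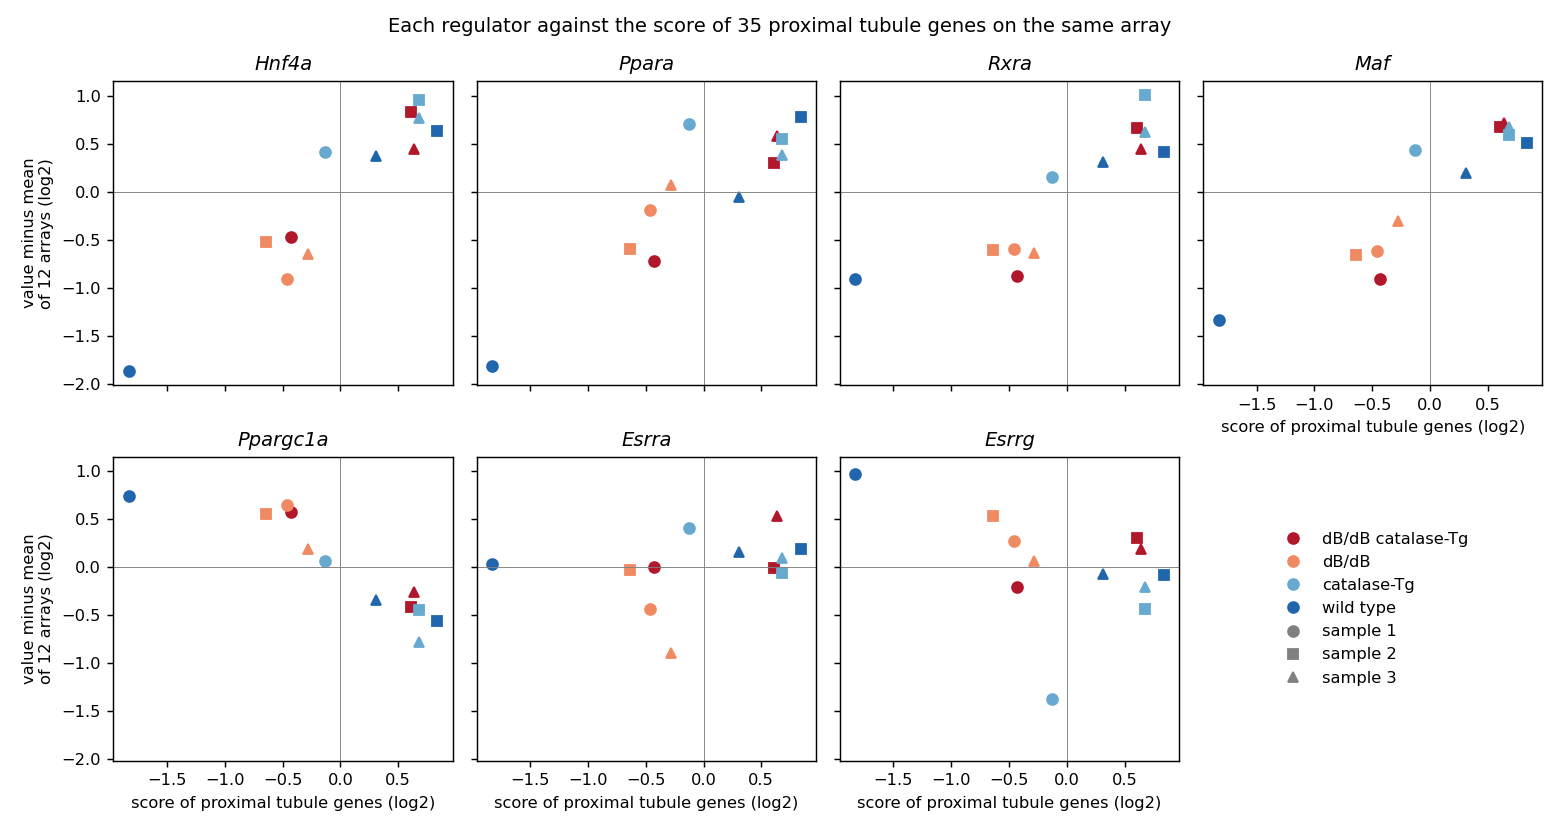
Centred expression of each of 7 regulators (log2, vertical axis) against the score of 35 proximal tubule genes on the same array (log2, horizontal axis), 1 point per array, coloured by group and shaped by sample number. Wild type 1 lies far left at -1.83, low for Hnf4a, Ppara, Rxra and Maf and high for Ppargc1a and Esrrg.

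Genes with the most similar array profiles were found for each member among all named probe sets tested, by the same mean absolute difference of centred values over 12 arrays. The nearest to Hnf4a were Glyat, a mitochondrial glycine acyltransferase (0.096), and Lrp2, the endocytic receptor megalin (0.121). The nearest to Maf were Fech, which inserts iron into heme (0.103), and Gcdh, glutaryl-CoA dehydrogenase (0.11). Rxra was nearest to Pcyt1a, of phosphatidylcholine synthesis (0.105), and Ankrd13c (0.107), and Ppara to Fmo1, a flavin monooxygenase (0.175), and Cotl1 (0.178). Ppargc1a was nearest to Tnrc6a, of microRNA silencing (0.106), and Lman1, a cargo receptor of the endoplasmic reticulum (0.11). Esrra was nearest to Uqcr10, a subunit of respiratory complex III (0.129), and Plekhg3 (0.13). Esrrg was nearest to Rragd, a Rag GTPase of mTORC1 signalling (0.129), and then to a Ppargc1a probe set (0.143).

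When dB/dB catalase-Tg 1, catalase-Tg 1 and wild type 1 were left out together, 4 of the 7 members passed in dB/dB against wild type, where 26.9% of all probe sets were called. Hnf4a fell by 1.20 (SE 0.19, adjusted p = 0.00543), Rxra by 0.98 (SE 0.16, adjusted p = 0.00598) and Maf by 0.88 (SE 0.17, adjusted p = 0.00991), and Ppargc1a rose by 0.92 (SE 0.19, adjusted p = 0.0132). The same 4 genes passed in the other direction in dB/dB catalase-Tg against dB/dB, where 27.8% of all probe sets were called. Hnf4a rose by 1.33 (SE 0.19, adjusted p = 0.00355), Maf by 1.22 (SE 0.17, adjusted p = 0.0033) and Rxra by 1.17 (SE 0.16, adjusted p = 0.00314), and Ppargc1a fell by 0.81 (SE 0.19, adjusted p = 0.0193). Both comparisons share the dB/dB arrays. Ppara, at -0.60 and 0.68, Esrra, at -0.62 and 0.71, and Esrrg, at 0.37 and -0.04, did not pass in either. That fit leaves wild type with samples 2 and 3, which carry Xist at 11.91 and 6.72 on its brightest probe set. The 3 arrays were chosen for their distance from their groups, so leaving them out shrinks the spread within groups by construction. The adjusted p of that fit are therefore too small and are no test of the members. With array weights and all 12 arrays, 5 members passed in dB/dB catalase-Tg against dB/dB, where 38.5% of all were called. These were Hnf4a (1.33), Rxra (1.12), Maf (1.11), Esrra (0.87) and Ppargc1a (-0.72), with adjusted p from 0.00339 to 0.0199. Array weights called 0 members in dB/dB against wild type, where 0.0% of all were called.

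No relative or dimer partner of the members was called. Of 28 such genes listed, 25 were matched and 16 tested, and 0 were called in any comparison. Of the 16, 8 lay above 0 and 8 below in dB/dB catalase-Tg against dB/dB, with a median of -0.02, the same as that of all probe sets. Pprc1, a relative of PGC-1alpha, averaged 5.53 ± 0.22 in dB/dB catalase-Tg and 4.82 ± 0.41 in dB/dB (SD, n = 3), a difference of 0.70 (SE 0.23, adjusted p = 0.636). Nr2f1, the orphan receptor COUP-TFI, averaged 2.81 ± 0.22 and 4.43 ± 0.85 in these groups (-1.62, SE 0.52, adjusted p = 0.636), close to the filter. Mafg, a small Maf protein that pairs with NRF2, averaged 6.60 ± 0.29 in dB/dB catalase-Tg and 7.38 ± 0.27 in catalase-Tg (-0.78, SE 0.25, adjusted p = 0.677). Esrrb, the estrogen-related receptor of early development, averaged 3.90 ± 0.46 in catalase-Tg and 5.12 ± 1.34 in wild type (-1.22, SE 0.54, adjusted p = 0.541).

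Among other transcription factors of the tubule, 29 of 33 listed were tested and 0 were called in any comparison. Medians ran from -0.12 to 0.13 over the 4 pairwise comparisons, where those of all probe sets ran from -0.11 to -0.02. Lhx1, a factor of nephron development, differed by -2.12 (SE 0.60, adjusted p = 0.441) in catalase-Tg against wild type, and Pax8, of tubule differentiation, by 0.66 (SE 0.24, adjusted p = 0.532). Nfe2l2, the oxidative stress factor NRF2, averaged 9.21 ± 0.23 in dB/dB catalase-Tg and 8.38 ± 0.14 in catalase-Tg, a difference of 0.83 (SE 0.26, adjusted p = 0.659). Cebpa, a factor of lipid and glucose metabolism, differed by 1.48 (SE 0.50, adjusted p = 0.636) in dB/dB catalase-Tg against dB/dB.

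Of 20 coactivators, corepressors and modifying enzymes listed, 18 were tested, and 1 was called, downward, in both transgene comparisons. This was Med1, the Mediator subunit that binds nuclear receptors, which averaged 6.01 ± 0.42 in dB/dB catalase-Tg and 8.28 ± 0.10 in dB/dB (-2.27, SE 0.21, adjusted p = 0.00974), and 6.14 ± 0.17 in catalase-Tg and 8.01 ± 0.03 in wild type (-1.87, SE 0.21, adjusted p = 0.0146). The other Med1 probe sets tested were not called, so the call rests on 1 probe set. They gave -0.64 (SE 0.28), -0.23 (SE 0.39) and 0.07 (SE 0.15) in dB/dB catalase-Tg against dB/dB. In catalase-Tg against wild type they gave -0.32, -0.23 and 0.06, with the same SE. Sirt3, a mitochondrial deacetylase, differed by 0.48 (SE 0.18, adjusted p = 0.636) in dB/dB catalase-Tg against dB/dB. Of 12 mitochondrial biogenesis factors, 10 were tested and 0 called, with medians of -0.18 to -0.03. Perm1, a muscle partner of PGC-1alpha and ERR, lay near the filter, and Tfb1m, a mitochondrial rRNA methyltransferase, differed by -0.54 (SE 0.25, adjusted p = 0.726) in dB/dB catalase-Tg against catalase-Tg.

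Target genes of the members were not called either. Of 26 PPAR-alpha targets listed, 22 were tested, with 0 called in any comparison. Of these, 17 lay above 0 and 5 below in dB/dB catalase-Tg against dB/dB, with a median of 0.45, against -0.02 for all probe sets. In that comparison 33 of 35 proximal tubule genes lay above 0, with a median of 0.85, and the medians of podocyte, fibroblast and mural, and endothelial markers were -2.56, -1.69 and -1.53, with 0 genes of these lists called. The part of this in the targets' median was not tested. Against catalase-Tg, dB/dB catalase-Tg had 18 of these targets above 0 and 4 below, with a median of 0.20, against -0.10. Medians were -0.01 in dB/dB against wild type and 0.11 in catalase-Tg against wild type. On single arrays the score of these targets was -0.59, 0.70 and 1.33 in dB/dB catalase-Tg, -0.18, -0.73 and 0.09 in dB/dB, -0.99, 0.54 and 0.38 in catalase-Tg, and -1.24, 0.62 and 0.07 in wild type. The lowest 3 included wild type 1 and catalase-Tg 1, although Ppara itself was at 10.02 on catalase-Tg 1, its second highest array. Pdk4, which restrains glucose oxidation, averaged 6.27 ± 0.52 in dB/dB catalase-Tg and 4.70 ± 0.22 in catalase-Tg, a difference of 1.57 (SE 0.55, adjusted p = 0.682). Cyp4a14, a fatty acid hydroxylase, averaged 8.96 ± 2.36 in dB/dB catalase-Tg and 3.28 ± 0.26 in catalase-Tg (5.68, SE 2.13, adjusted p = 0.697). Hadha, of mitochondrial beta-oxidation, differed by -0.63 (SE 0.28, adjusted p = 0.54) in catalase-Tg against wild type.

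Of 23 targets of PGC-1alpha and the estrogen-related receptors, 22 were tested and 0 called. Their scores stayed between -0.28 and 0.19 on all 12 arrays, a narrower range than that of the PPAR-alpha targets, at -1.24 to 1.33. Medians were 0.02 in dB/dB catalase-Tg against dB/dB, 0.03 in dB/dB catalase-Tg against catalase-Tg, -0.13 in dB/dB against wild type and -0.10 in catalase-Tg against wild type. Mfn2, a mitochondrial fusion protein, averaged 8.04 ± 0.43 in catalase-Tg and 8.72 ± 0.03 in wild type (-0.68, SE 0.29, adjusted p = 0.534). Ndufs1, a subunit of complex I, averaged 11.01 ± 0.23 in dB/dB and 11.50 ± 0.22 in wild type (-0.49, SE 0.27, adjusted p = 0.767). Cs, citrate synthase, differed by 0.32 (SE 0.19, adjusted p = 0.77) in dB/dB catalase-Tg against catalase-Tg.

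Whether the transgene acted differently with and without dB/dB was tested as the interaction, and 0 of the 7 members passed, each with an adjusted p of 1.0. On the brightest probe sets the estimates of largest size were 0.75 (SE 0.51) for Esrrg, -0.61 (SE 0.80) for Ppara and 0.60 (SE 0.35) for Esrra. The second Esrrg probe set gave -1.03 (SE 0.59), of the other sign and larger. Those of Hnf4a, Rxra and Maf were -0.04, 0.04 and -0.09, with SE of 0.81, 0.63 and 0.72, so sizeable differences in either direction remain within the error.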

How the data were processed

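Microarrays of 12 proximal tubule samples were compared, 3 per group, with groups and sample numbers taken from the titles. The authors deposited 1 log2 value per probe set and array, made with GCRMA (background correction and normalization). GCRMA and limma are named per the submitters' processing notes, with versions not given in the sources used here. Values were used as deposited, and precision is limited by the number of arrays. From 45101 probe sets, 64 controls were left out. Of the rest, 34945 had 1 gene symbol, 932 several and 9160 none, and only those with 1 were named, from GEO's annotation of the array.

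Probe sets above 4 (log2) on at least 3 arrays, 18144 in all, were tested together on all 12 arrays (limma 3.58.1, R 4.3.3), 1 coefficient per group, in 4 pairwise contrasts and the interaction. A call is an adjusted p (Benjamini-Hochberg, over all probe sets tested) under 0.05. SE is the moderated standard error. Gene lists were matched by symbol and described by counts and medians, through each gene's brightest probe set. Named genes were the members, the 2 nearest profiles of each, and up to 4 genes of smallest p, plus any called, from each pathway list. Members, lists and tests were chosen with earlier results of these data known. The script was tested on simulated data.

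Deviations of samples of the same number had correlations all over 0.1 in catalase-Tg against wild type (0.2 to 0.396) and dB/dB catalase-Tg against catalase-Tg (0.426 to 0.607). In the other 2 comparisons they did not (0.0974 to 0.165 and -0.13 to 0.11). Of the pairs of groups not compared, dB/dB catalase-Tg with wild type gave 0.265 to 0.705 and dB/dB with catalase-Tg -0.179 to 0.217. Samples of different numbers were not correlated, so a pairing by number is not shown. The labels give no pairing. Alternatives tried were other filters, spread estimates, array weights, normalizations, the mean of a gene's probe sets, a fit on 2 groups at a time, the replicate block, leaving out each array and, added after seeing the data, leaving out 3 arrays.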

Additional observations from a re-analysis of the deposited data

How the results depend on the processing

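Over 22 alternatives, 763 differences of single members in 5 contrasts were recomputed. Of these, 699 kept their direction and their side of the threshold, 13 newly passed and 51 changed direction. The main fit called no member, so no call could be lost. Other filters and spread estimates, fits on 2 groups, the replicate block and leaving out an array of another group cannot change a pairwise difference, only its error. The 699 include these, so the count is not a measure of how stable the directions are. Leaving out any 1 of the 12 arrays called 0 members in every contrast. With array weights the count of members called moved from 0 to 5 in dB/dB catalase-Tg against dB/dB, where 38.5% of all probe sets were called. It moved to 4 there and 4 in dB/dB against wild type when dB/dB catalase-Tg 1, catalase-Tg 1 and wild type 1 were left out. In that alternative, chosen after seeing the data, 27.8% and 26.9% of all probe sets were called. With the replicate block the count was 0 in each contrast, so the paired fit changed no call. limma's array weights stopped before their convergence tolerance was reached.

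No difference that changed direction had been called. In dB/dB against wild type, Ppara became -0.16 with array weights, -0.24 as the mean of its probe sets and -0.60 without the 3 arrays, and Esrrg -0.04 with median-centred arrays. Leaving out 1 array gave Hnf4a -1.20 to 0.05, Ppara -0.60 to 0.69, Esrrg -0.16 to 0.37 and Maf -0.88 to 0.04. In catalase-Tg against wild type, Esrra became -0.11 with array weights and -0.15 without the 3 arrays. Leaving out 1 array gave Esrra -0.11 to 0.12 and Ppargc1a -0.58 to 0.07. In dB/dB catalase-Tg against dB/dB, Esrrg became 0.02 with array weights. In dB/dB catalase-Tg against catalase-Tg, Esrra became -0.02 with median-centred arrays and -0.16 as the mean of its probe sets, and Maf 0.02 with array weights and 0.06 without the 3 arrays. Leaving out 1 array gave Esrra -0.15 to 0.15 and Maf -0.69 to 0.13. In the interaction, array weights gave Hnf4a 0.66, Ppara 0.10 and Maf 0.60, leaving out the 3 arrays gave 0.97, 0.58 and 0.94 for these genes, and the mean of probe sets gave Hnf4a 0.03, Ppargc1a 0.19 and Esrrg -0.14. Quantile normalization gave Rxra -0.01. Leaving out 1 array gave Hnf4a -0.50 to 0.75, Ppara -1.18 to 0.11, Ppargc1a -0.57 to 0.08, Rxra -0.26 to 0.52 and Maf -0.45 to 0.47. The cause of these changes was not tested.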
